A study of Homo sapiens with 12 samples.

Results

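ZNF609 was mapped in HEK293T cells by chromatin immunoprecipitation followed by sequencing (ChIP-seq), and the places where its peaks were found in both libraries are described here. Peaks of the 2 lists on chromosomes 1 to 22 and X that overlapped by 1 bp or more were merged, and a merged stretch was kept as a reproducible region where it held a peak of each list. This gave 9918 regions out of 59243 merged stretches. Replicate 1 had 46187 peaks and replicate 2 had 26409, together 72596 of the 1493051 peaks in the 10 lists of the study.

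The study mapped INTS13 and several of its interactors to ask whether they lie at the same loci. There were 2 libraries each for ZNF609, INTS13, INTS11, HDGF and ZEB1, plus 2 libraries of input chromatin that were not analysed here, so the local background of a stretch was not measured. All libraries came from wild-type HEK293T cells, a human embryonic kidney line that carries SV40 large T antigen, grown without any treatment and fixed with formaldehyde. The ZNF609 antibody was one made for an earlier published study (van den Berg and colleagues), and no library from cells without ZNF609 is among those used here. The labels do not tell whether the replicates are different cultures, and p-values below measure only the spread between these libraries, which may be technical.

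ZNF609 is a zinc finger protein of the nucleus. In mouse it is known as a partner of the cohesin loader NIPBL and of Integrator, and as a factor in the migration of neurons of the developing cortex. Integrator is the RNA polymerase II complex that cleaves nascent RNA; INTS11 is its endonuclease and INTS13 one of its auxiliary subunits. ZNF608 is the paralog of ZNF609. HDGF is a chromatin-associated growth factor and ZEB1 a zinc finger repressor of epithelial genes.

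The sequences below are promoters that overlapped a ZNF609 region with a summit of each list near the start. They are the 5 highest-ranked genes whose RefSeq start window at the outer end of the gene, 250 bases before to 50 after the start site, overlapped a reproducible region with a summit of each list within 1 kb of that start. A gene such as BOC, for which the start sites in the table lie away from that end, was not eligible. The ranking was by the lower of the peak's height percentiles in its own 2 lists, not by distance from the start. Sequences are from RefSeq (GRCh38.p14), 5′ to 3′ on the strand of the gene, and capitals mark each CG dinucleotide, whose letters read the same on both strands.
LOC124909486: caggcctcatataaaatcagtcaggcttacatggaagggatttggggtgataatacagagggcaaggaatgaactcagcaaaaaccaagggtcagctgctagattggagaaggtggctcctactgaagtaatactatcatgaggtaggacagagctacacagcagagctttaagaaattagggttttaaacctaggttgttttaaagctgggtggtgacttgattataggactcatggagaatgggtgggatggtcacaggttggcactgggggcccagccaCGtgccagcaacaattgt
ACOD1: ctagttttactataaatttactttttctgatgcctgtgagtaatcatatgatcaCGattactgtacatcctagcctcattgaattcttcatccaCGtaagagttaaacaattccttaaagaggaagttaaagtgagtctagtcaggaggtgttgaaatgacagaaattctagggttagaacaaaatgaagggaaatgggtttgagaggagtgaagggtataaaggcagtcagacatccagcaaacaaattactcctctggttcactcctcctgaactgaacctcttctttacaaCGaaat
LMO7: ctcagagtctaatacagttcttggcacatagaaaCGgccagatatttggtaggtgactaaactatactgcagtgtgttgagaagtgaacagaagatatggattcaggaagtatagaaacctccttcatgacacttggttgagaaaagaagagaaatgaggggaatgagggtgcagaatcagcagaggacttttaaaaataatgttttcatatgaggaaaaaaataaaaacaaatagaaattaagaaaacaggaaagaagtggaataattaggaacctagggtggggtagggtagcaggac
NXF3: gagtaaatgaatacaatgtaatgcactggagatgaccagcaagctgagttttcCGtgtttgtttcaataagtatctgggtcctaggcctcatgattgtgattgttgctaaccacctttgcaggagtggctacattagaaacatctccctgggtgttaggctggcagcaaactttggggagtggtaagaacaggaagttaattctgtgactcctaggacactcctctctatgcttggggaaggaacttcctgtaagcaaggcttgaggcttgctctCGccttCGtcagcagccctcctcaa
PSEN2: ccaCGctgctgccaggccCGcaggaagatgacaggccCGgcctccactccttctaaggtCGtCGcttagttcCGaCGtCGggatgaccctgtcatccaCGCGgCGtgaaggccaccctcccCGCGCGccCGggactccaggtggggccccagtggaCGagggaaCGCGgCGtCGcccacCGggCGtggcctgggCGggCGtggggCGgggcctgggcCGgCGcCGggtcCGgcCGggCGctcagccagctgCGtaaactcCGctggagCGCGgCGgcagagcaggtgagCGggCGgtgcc

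LOC124909486 is an annotated coding gene with no assigned name (window chr3:113215581-113215880, minus strand). ACOD1 makes itaconate in activated macrophages (chr13:76948261-76948560, plus strand), and LMO7 is a LIM-domain protein linked to actin and cell junctions (chr13:75620184-75620483, plus strand). NXF3 belongs to the family of mRNA export factors (chrX:103093094-103093393, minus strand), and PSEN2 is a catalytic subunit of gamma-secretase (chr1:226870366-226870665, plus strand). The regions covered 300 of the 300 bases at 4 of these windows and 146 bases at NXF3. Summits lay between 87 and 857 bp from the start. Only the replicate 2 summit of LOC124909486 lay inside its printed window, so the bases shown are mostly not those at the summits. The first 4 windows held between 1 and 3 CG, with GC contents of 46.7%, 37.7%, 38.0% and 47.3%, while the PSEN2 window held 38 CG with a GC content of 75%. 

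Over all genes with a start window in the table (34961 windows), 196 windows overlapped a reproducible region (0.561%). Their median GC content was 51.7% and their median number of CG was 5.5, against 58.7% and 14 over all windows. At least 1 CG was present in 92.9% of windows with a region, against 96.1% of all windows. Windows in the ZNF609-rich bins described below that had no region had a median GC content of 60.3% and a median of 16 CG. Windows with a peak of replicate 1 only had a median of 8.5 CG, and those with a peak of replicate 2 only had 5. The windows with a region were thus poorer in CG, as medians, than all windows and than those in the rich bins without a region. They were not poorer than windows with a peak of replicate 2 only. The part of neighbourhood and annotation in this was not tested.

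ZNF609 regions lay mostly on 2 chromosomes. Chromosome 13 held 4690 of the 9918 regions (47.3%) and chromosome 1 held 3303 (33.3%). Chromosome 18 followed with 715, chromosome X with 310, chromosome 7 with 284, chromosome 22 with 172 and chromosome 16 with 96. Chromosome 13 carries few genes, 338 of the 19974 protein-coding genes in the RefSeq table. At the other end, chromosome 8 had 0 regions from 141 and 40 peaks in replicates 1 and 2, and chromosomes 2, 4 and 11 had 1 region each.

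The concentration on chromosome 13 was larger for regions than for peaks. Chromosome 13 held 22.2% of replicate 1 peaks and 33.8% of replicate 2 peaks, and there 55.8% of replicate 1 peaks and 71.4% of replicate 2 peaks overlapped the other list. On chromosome 1 the shares of peaks were 34.1% and 32.4% in replicates 1 and 2, and 22.1% and 41.8% of those peaks overlapped the other list. The 2 lists therefore gave chromosome 1 about the same weight and chromosome 13 different weights.

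**Figure D1:**
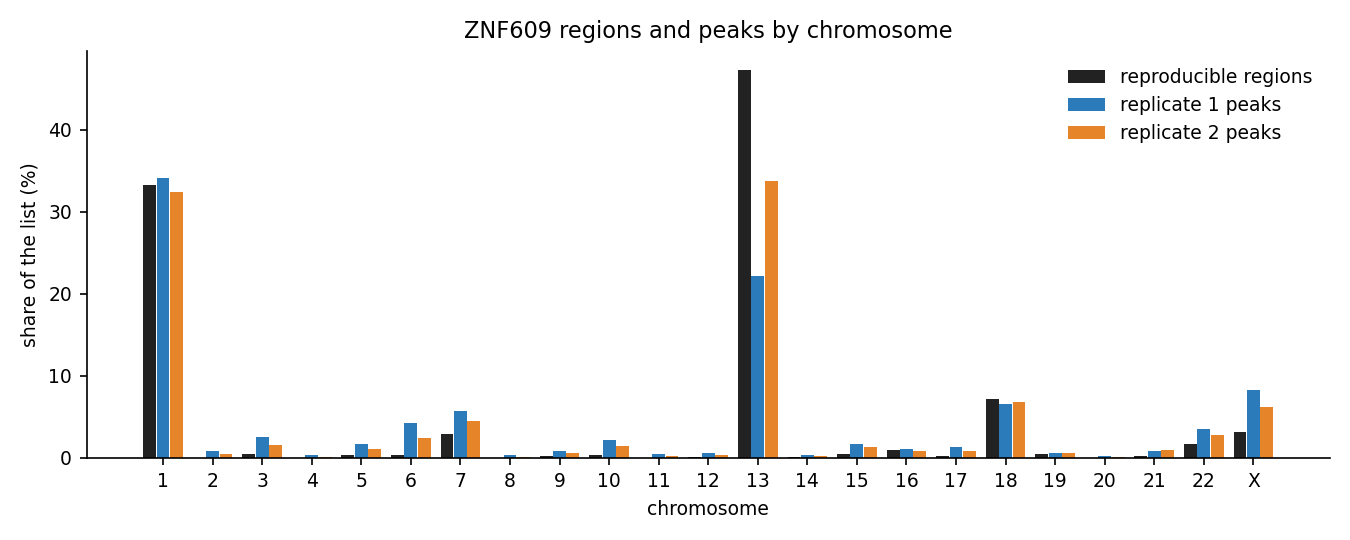
Share of ZNF609 reproducible regions (black), replicate 1 peaks (blue) and replicate 2 peaks (orange) on each chromosome, in percent of each list. Chromosome 13 holds 47.3% of regions against 22.2% and 33.8% of the peaks of replicates 1 and 2, and chromosome 1 holds about equal shares of all 3.

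Within chromosomes the regions sat in a few long stretches. Of 3043 bins of 1 Mb, 333 held any region, 27 held as many as the rest together (0.887% of bins) and 92 held 90% of them. A bin was called dense where both lists had more than 2 times their mean number of peaks per bin, which was 15.2 for replicate 1 and 8.68 for replicate 2. The 220 dense bins held 97.9% of the regions, 77.6% of replicate 1 peaks and 86.5% of replicate 2 peaks. Runs of neighbouring dense bins formed 60 blocks, and the 5 with most regions held 84.8% of all regions.

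The largest block ran from 62 to 95 Mb on chromosome 13, with 4686 regions that covered 41.2% of its bases. It holds 41 protein-coding genes, 1.24 per Mb. The next was 223 to 246 Mb on chromosome 1, with 1850 regions, 138 protein-coding genes and 12.1% of its bases covered. The others among the 5 were 30 to 41 Mb on chromosome 18 (705 regions), 54 to 72 Mb on chromosome 1 (623) and 27 to 34 Mb on chromosome 1 (548). Gene-rich stretches were among the smaller blocks: 36 to 41 Mb on chromosome 22 had 107 regions and 19.8 coding genes per Mb, and 29 to 31 Mb on chromosome 16 had 91 regions and 35 coding genes per Mb.

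Single peaks were weak and narrow. The authors' fold, a linear ratio of summit height to background, had a median of 2.58 in replicate 1 and 2.83 in replicate 2, with a largest value of 10.9 in each. Folds came in equal steps of 0.117 and 0.135, with a largest departure of 4.5e-05 of a step, and took only 44 and 38 different values. The lowest peaks stood at 18 and 17 steps. Folds are used below only to rank peaks within a list, where ties are common, since the backgrounds of the lists differ.

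Peaks had a median width of 541 bp in replicate 1 and 498 bp in replicate 2. Reproducible regions were wider, with a median of 1246.5 bp and a range of 340 bp to 202 kb, as merging 2 peaks must make them. Regions under 1 kb numbered 3478 (35.1%). The 210 regions of 10 kb or more were 2.12% of regions but held 28.9% of their 21.6 Mb. Of these broad regions 193 lay on chromosome 13, 9 on chromosome 9, 5 on chromosome 15, and 1 each on chromosomes 1, 10 and 22.

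Broad regions were also the tall ones. Their highest fold had a median of 4.57 in each list, against 2.81 in replicate 1 and 2.96 in replicate 2 for regions under 10 kb. Most regions (8160, or 82.3%) held exactly 1 peak of each list. The broad ones could be split differently in each library: the widest peak of all, 171.34 kb in replicate 1 on chromosome 9, was matched by 8 peaks in replicate 2.

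The 5 widest regions lay in gene-poor stretches or across a few long genes. The widest, chr13:61742181-61944441 (202 kb), overlapped no annotated gene, and the nearest coding gene was PCDH20, a protocadherin cell adhesion gene 427 kb away. Its highest folds were 7.86 in replicate 1 and 7.67 in replicate 2. The next, chr9:79571944-79743283 (171 kb), overlapped TLE4, a Groucho-type transcriptional corepressor, with folds of 5.98 and 5.52 in replicates 1 and 2. A further one, chr9:79182267-79344539 (162 kb), lay 309 kb from TLE4. PCDH9, another protocadherin, was overlapped by chr13:66279417-66444943 (166 kb; folds of 5.16 and 5.52 in replicates 1 and 2) and by chr13:66825016-66978558 (154 kb; 5.86 and 5.65). All 5 also overlapped a reproducible region of INTS13, INTS11, HDGF and ZEB1.

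The tallest region in the deposited lists was chr13:62061923-62188013, 126 kb wide and 709 kb from PCDH20. It held the highest summit of each list, with folds of 10.9 in both replicates and summits 116 bp apart. The 2 lists thus shared their single highest summit to within the width of a peak.

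Summits elsewhere were placed less closely. Over the 8160 regions with 1 peak of each list the median distance between the 2 summits was 327.5 bp, and 68.8% lay within 500 bp. Regions with several peaks of a list are left out of these values. In the widest region, for example, the highest summits of the 2 lists lay 58209 bp apart. The height of a region in one list said little of its height in the other: over the 8160 regions with 1 peak of each list, the folds had a Spearman rho of 0.139 and the widths 0.139. Over all 9918 regions, broad ones included, the rho of the folds was 0.299. These are correlations across regions of 1 pair of libraries, and regions are not independent replicates.

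Most ZNF609 peaks were found in 1 list only. Of replicate 1 peaks 11210 (24.3%) overlapped a peak of replicate 2, and of replicate 2 peaks 12061 (45.7%) overlapped one of replicate 1. That left 34977 peaks of replicate 1 alone and 14348 of replicate 2 alone. In bases, the lists shared 11.5 Mb, with a Jaccard index of 0.230: 29.2% of what replicate 1 covered and 51.8% of what replicate 2 covered.

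Peaks found in both lists were wider and taller than peaks found in one. In replicate 1 their median width was 897 bp, against 492 bp for its single peaks, and in replicate 2 it was 647 bp, against 434 bp. Median folds were 2.81 against 2.58 in replicate 1 and 2.96 against 2.69 in replicate 2. No single peak reached 10 kb in width, while 171 and 157 shared peaks did. The highest single peaks had folds of 4.57 in replicate 1 and 4.31 in replicate 2. Wider peaks overlap others more easily for any placement, so width and sharing are not independent measures.

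Sharing climbed with the rank and the width of a peak. With each list cut into 10 equal groups by the authors' −log10 p, the share of replicate 1 peaks in replicate 2 was 9.05% in the lowest group and 64.4% in the highest, and that of replicate 2 peaks in replicate 1 was 26.7% and 80.9%. By width it was 9.44% in replicate 1 and 26.6% in replicate 2 for peaks under 0.4 kb, and 100% in both for peaks of 10 kb or more. In the highest group of replicate 1, the 692 peaks narrower than 0.6 kb were shared in 27.3% of cases and the 3927 others in 71.0%.

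**Figure D2:**
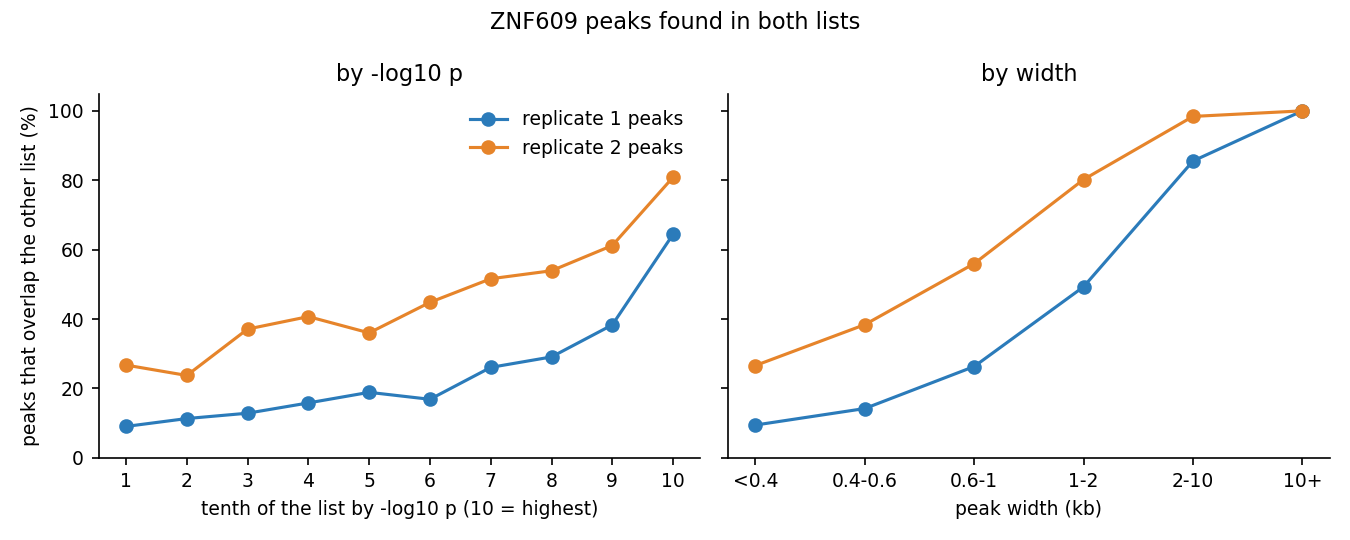
Percent of ZNF609 peaks that overlap a peak of the other replicate, in 10 equal groups of the list by −log10 p (left) and by peak width in kb (right), for replicate 1 (blue) and replicate 2 (orange). Sharing reaches 64.4% and 80.9% in the highest group of replicates 1 and 2, and 100% for peaks of 10 kb or more.

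Sharing also differed with place, which follows in part from how dense bins were chosen. They hold many peaks of both lists by definition, and replicate 1 and 2 peaks cover 15.1% and 8.88% of their bases, against 0.213% and 0.0925% of the others. In dense bins 30.7% of replicate 1 peaks and 51.7% of replicate 2 peaks were shared, against 2.15% and 7.16% in the other bins. Of shared peaks, 98.0% in replicate 1 and 97.9% in replicate 2 lay in dense bins, against 71.0% and 76.9% of single peaks. Chromosome 13 held 51.0% and 52.8% of shared peaks of replicates 1 and 2, against 12.9% and 17.8% of single ones. Chromosome X went the other way, with 2.79% and 2.61% of shared peaks, against 9.98% and 9.29% of single ones. Single peaks were often near a peak of the other list without touching it: the median distance was 4.74 kb for replicate 1 and 1.69 kb for replicate 2.

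Sharing in the largest block was close to what the covered length alone gives. Between 62 and 95 Mb on chromosome 13, replicate 2 peaks covered 34.5% of the bases and held 32.9% of replicate 1 summits, a ratio of 0.955. Replicate 1 peaks covered 45.7% and held 52.3% of replicate 2 summits, a ratio of 1.15. With peaks of 10 kb or more and the bases under them left out, the ratios were 1.15 and 1.26. In this block, which holds 47.2% of all regions, summits of one list thus fell in peaks of the other about in proportion to the length those peaks cover.

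Ratios were higher in the 7 next largest blocks. Between 223 and 246 Mb on chromosome 1, replicate 1 summits lay in replicate 2 peaks 1.65 times as often as the share of covered bases, and replicate 2 summits in replicate 1 peaks 1.70 times. Between 36 and 41 Mb on chromosome 22 the ratios were 3.71 and 3.91. Over all dense bins they were 1.90 and 2.36. Outside dense bins they were 13.6 and 24.8, on few summits: 1.26% of replicate 1 summits and 5.28% of replicate 2 summits there lay in a peak of the other list. A set of bins that mixes rich and poor places gives a ratio above 1 by its mixture alone.

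**Figure D3:**
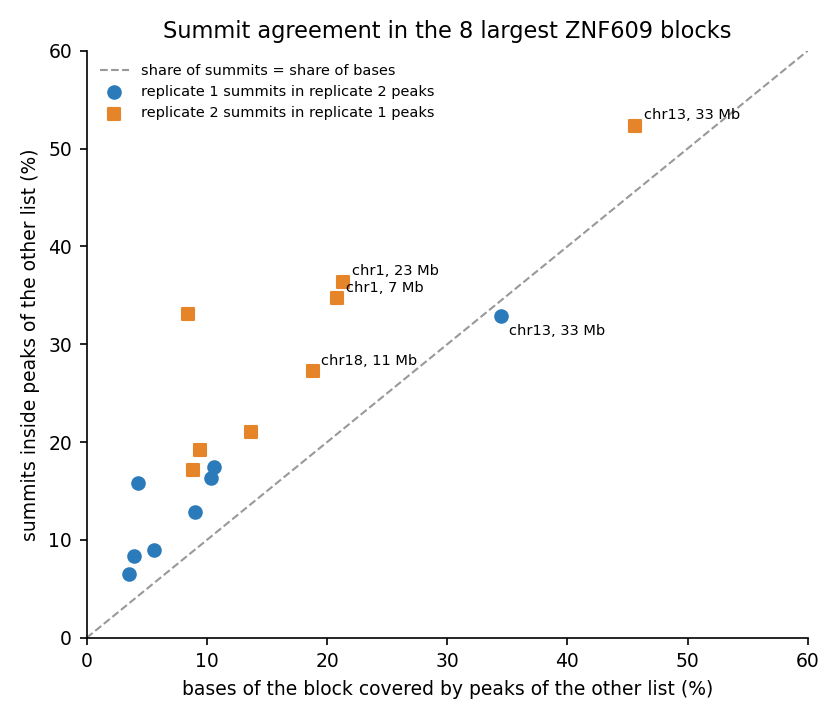
Percent of ZNF609 summits inside peaks of the other replicate (vertical) against the percent of the block's bases those peaks cover (horizontal), in the 8 blocks with most regions; labels give the chromosome and the length of the block. In the 33-Mb block of chromosome 13 the blue point (32.9% of summits, 34.5% of bases) lies just under the dashed line of equal shares, and in the other 7 blocks both points lie above it.

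The highest peaks found in 1 list only lay at varied distances from the other list. How often other positions of the same blocks lie as near to a peak was not measured. In replicate 1 they were at chr1:227331444-227332127, 13.2 kb from the kinase gene CDC42BPA, and at chr1:235870823-235871742, inside LYST, a gene of lysosome traffic. Both had a fold of 4.57, above 99.6% of that list, and the nearest replicate 2 peaks were 3.98 and 1.11 kb away. In replicate 2 the highest was chr1:224749419-224749954, 9.16 kb from CNIH3, an auxiliary subunit gene of AMPA receptors, with a fold of 4.31 and a replicate 1 peak 1.73 kb away. In 1 further case, chr10:46718008-46718549 in replicate 1 (fold 4.10), the nearest replicate 2 peak was 157 kb away and no region of another protein overlapped it.

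ZNF609 regions showed little preference for genes or their ends. Midpoints of 53.7% of regions lay inside protein-coding or long non-coding RNA genes, whose bodies cover 53.7% of the chromosomes, and 54.2% of the sequence when bins are weighted by their number of regions. Windows of 1 kb around either end of these genes held 4.67% of midpoints, against 4.47% of the sequence and 4.55% with the same weights. Start site windows held 1.72%, against 1.85% and 1.89%, and 3′ end windows held 1.89%, against 1.73% and 1.80%. Regions thus lay in genes and at their ends about as often as the sequence of the same bins.

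The position differed between chromosomes. On chromosome 13, 42.2% of region midpoints lay in gene bodies, which cover 41.7% of it. On chromosome 1 it was 64.9% against 55.7% of the sequence, on chromosome 18 it was 63.4% against 48.9%, and on chromosome 22 it was 83.7% against 45.5%. These are whole-chromosome shares of sequence, not weighted by bins. Without chromosome 13 the share of midpoints in gene bodies was 64.1%.

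Counted by any overlap, 862 regions (8.69%) touched an end window. With 1 class per region, 371 lay at a start (3.74%), 309 at a 3′ end (3.12%), 4910 inside a gene but at neither (49.5%), 2788 between genes within 50 kb of one (28.1%) and 1540 more than 50 kb from any gene (15.5%). Of the last class 85.1% lay on chromosome 13. A start was taken from the start sites in the table, and a 3′ end could be told only with a strand. Another 227 regions at gene ends, with no strand or with the start site elsewhere, are counted inside or between genes here. Regions at starts and 3′ ends had median widths of 1482 and 1446 bp, against 1203 bp inside genes; a wider region reaches a window more easily.

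Few genes carried ZNF609 at an end. Of 19974 protein-coding genes 313 had a region within 1 kb of an end (1.57%). Single lists gave 1398 genes in replicate 1 (7%) and 686 in replicate 2 (3.43%), and 436 genes had a peak of each list at their ends. For the 15812 coding genes with a strand in the table, 194 had a region at a start site (1.23%). Long non-coding RNA genes stood at 362 of 18177 (1.99%), pseudogenes at 228 of 15212 (1.5%), microRNA genes at 21 of 1911 (1.1%), small nucleolar RNA genes at 19 of 1196 (1.59%), tRNA genes at 5 of 443 (1.13%) and small nuclear RNA genes at 2 of 154 (1.3%). The classes thus lay between 1.1% and 1.99%.

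Nearly all of the 313 genes lay in dense bins. Among the 1940 coding genes in dense bins 297 had a region at an end (15.3%), against 16 of the 18034 other coding genes (0.0887%). Dense bins were chosen on the peaks of both lists and hold 97.9% of all regions, so this contrast follows from their definition. Chromosome 1 had 158 of the 313 genes, chromosome 13 had 34, chromosome 16 had 26, chromosome 22 had 19, chromosome 18 had 18, chromosome 7 had 16 and chromosome X had 15. By end, 88 genes had a region at the start only, 81 at the 3′ end only and 90 at both. For the other 54 the strand is not in the table, or the start site used differs from the end of the gene. Neighbours can share a region, which was so for 80 of the 313 genes.

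The genes with a summit of each list near the same end covered many functions. At 171 coding genes a summit of each list lay within 1 kb of the same end: 58 at a start, 82 at a 3′ end and 31 with no strand. The 20 ranked first had folds between 2.93 and 3.52 in replicate 1 and between 3.09 and 3.77 in replicate 2, against list medians of 2.58 and 2.83. These are modest heights, well under the 10.9 of the tallest region. Of the 20, 8 had the peak at a start and 8 at a 3′ end, 6 lie on chromosome 13 and 5 on chromosome 1.

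GPC6, a glypican that carries heparan sulfate at the cell surface, ranked first. Its region, chr13:94407782-94408896 at the 3′ end, had folds of 3.40 in replicate 1 and 3.50 in replicate 2. ANO8 and GTPBP3, which encode an anoctamin and a GTPase that modifies mitochondrial tRNAs, share the region chr19:17333756-17334664 between them, with folds of 3.17 and 3.63 in replicates 1 and 2 and summits 66 bp apart. SLAIN1, a microtubule plus-end gene, had folds of 3.17 and 3.77 in replicates 1 and 2 at its 3′ end. The highest fold of replicate 1 among the 20, 3.52, was that of MYCBP2, a ubiquitin ligase of axon development, and of COMMD6, both at 3′ ends, with 3.36 and 3.23 in replicate 2.

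At starts, GTPBP3 was followed by LOC124909486 and by ACOD1, and the folds of ACOD1 were 3.28 in replicate 1 and 3.23 in replicate 2. BOC, a co-receptor of Hedgehog signalling, DACH1, a transcriptional cofactor of eye and limb development, and SMARCD3, a subunit of BAF chromatin remodelling complexes, each had a fold of 2.93 in replicate 1. In replicate 2 the folds were 3.36, 3.36 and 3.63 for BOC, DACH1 and SMARCD3. ADGRB2, an adhesion receptor, and HSD3B7, an enzyme of bile acid synthesis, both had 3.28 in replicate 1 and 3.09 in replicate 2. The 20 also include FBXO28, ITPKB, STUM, LOC107984936, RAB9B and DSG1.

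The other proteins were present at most of these ends. Of the 20 regions, counted per gene, 19 overlapped an INTS13 region, 19 an INTS11 region, 16 an HDGF region and 18 a ZEB1 region. Over all 171 genes 161 had an INTS13 region there, 156 an INTS11 region, 118 an HDGF region and 110 a ZEB1 region, and 83 had all 4. Over all 9918 regions the shares were 86.4% for INTS13, 90.5% for INTS11, 46.7% for HDGF and 57.8% for ZEB1. No reproducible region of the 4 overlapped that of DSG1, a desmosomal cadherin, chr18:31358587-31359643 at the 3′ end. Its folds were 3.05 in replicate 1 and 3.09 in replicate 2. The region did meet a peak in at least 1 single list of another protein. It is not among the regions, described below, that met no such peak.

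**Figure D4:**
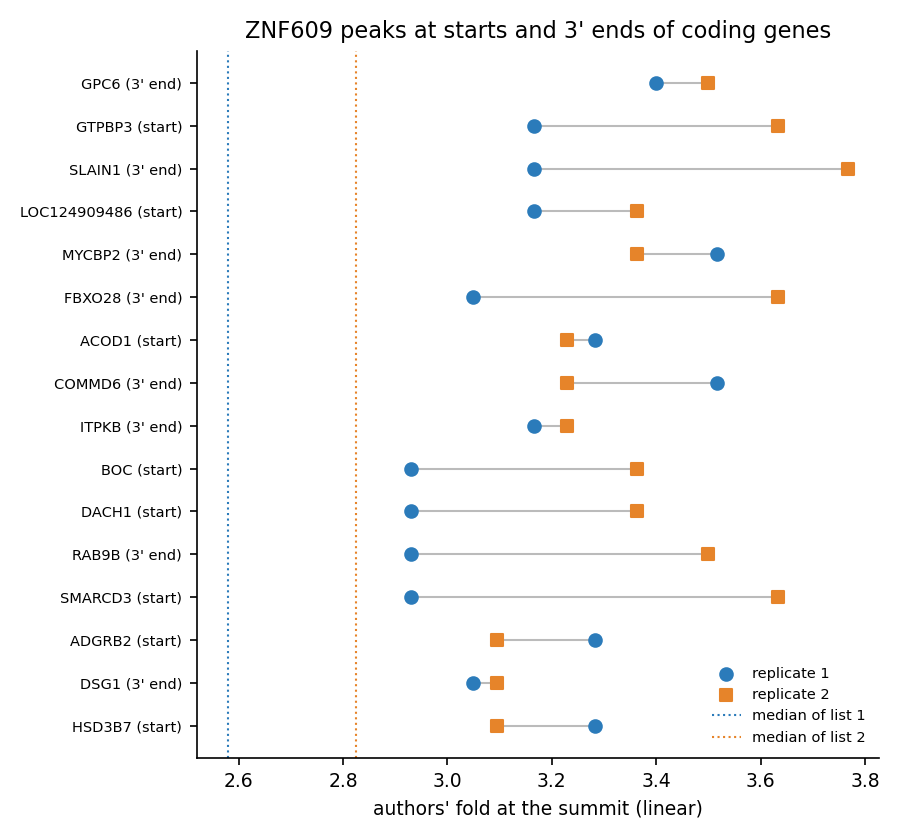
Authors' fold at the ZNF609 summits (linear scale) at those of the 20 coding genes ranked first that have a strand in the table, 8 with the peak at a start and 8 at a 3′ end, for replicate 1 (blue circles) and replicate 2 (orange squares), with the end that carries the peak; dotted lines mark the median fold of each list. All genes plotted lie right of both medians, since they were ranked on these folds, between 2.93 and 3.77.

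More genes carried ZNF609 inside the body. A region overlapped the body of 731 coding genes (3.66%), and 94 held 10 or more. Genes with a region in the body were long, with a median of 54.8 kb against 24.2 kb for all coding genes. In dense bins alone, the 653 with a region had a median length of 52.3 kb, against 15.5 kb for those without. A longer body meets regions more easily for any placement, so length and overlap are tied. The 10 genes with most regions held 9.97% of all regions between them.

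GPC5, a glypican and a neighbour of GPC6, was first with 223 regions from 532 and 426 peaks of replicates 1 and 2, over 1469 kb. KLF12, a Krüppel-like transcription factor, held 156, GPC6 held 142 and DACH1 held 115. LMO7 held 71, MYCBP2 67, the kinase gene CDC42BPA 57, TBC1D4 (a Rab regulator in insulin-stimulated glucose uptake) 54, the formin gene FHOD3 52 and PIBF1, a gene of the centrosome, 52. Of the 10, 8 lie on chromosome 13, CDC42BPA on chromosome 1 and FHOD3 on chromosome 18.

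The order was different per length. Per 100 kb of gene, GPC5 held 15.2 regions and GPC6 11.9, against 29.7 for LMO7, 27.2 for TBC1D4, 26.8 for DACH1 and 25.2 for KLF12. Among genes with 10 or more region midpoints, densities were highest in KCNJ4, GPR180 and EPHX1. KCNJ4, a potassium channel gene on chromosome 22, had 34.6 per 100 kb. GPR180 on chromosome 13 had 33.5 and EPHX1, an epoxide hydrolase gene on chromosome 1, had 31.0. All are short, and a short gene reaches 10 midpoints only at a high density, so the filter ties density to length.

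**Figure D5:**
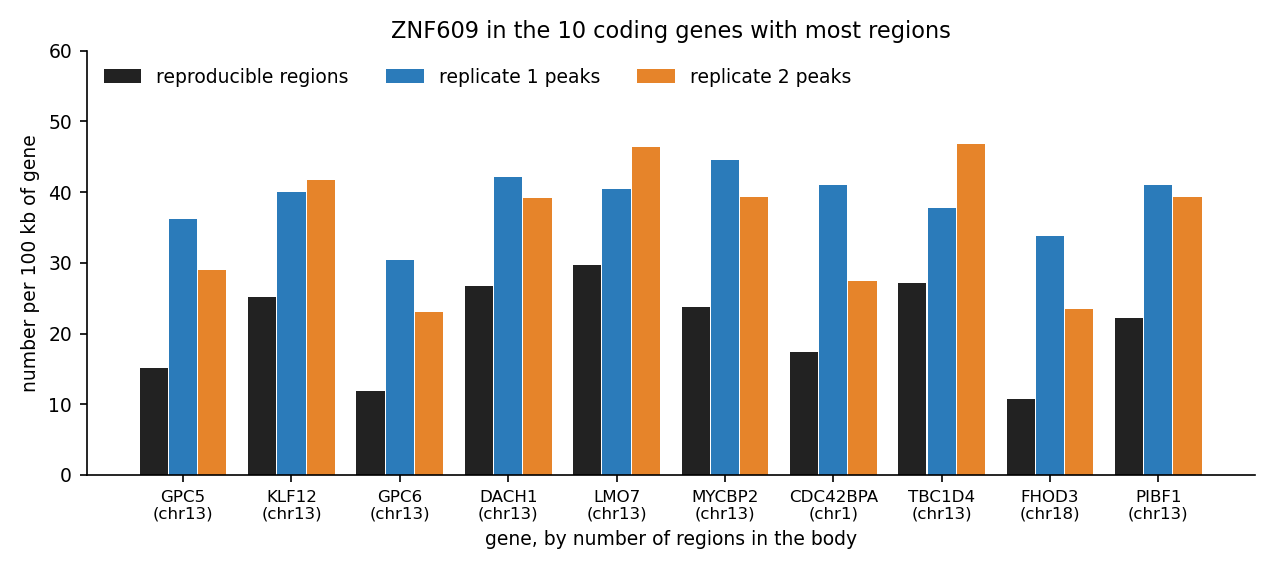
Number of ZNF609 reproducible regions (black), replicate 1 peaks (blue) and replicate 2 peaks (orange) per 100 kb of gene, in the 10 coding genes with most regions in the body, ordered by that number. Regions run between 10.8 per 100 kb in FHOD3 and 29.7 in LMO7.

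Genes of the processes known for ZNF609 had few regions at their ends, and some had regions in their bodies. Of 18 Integrator subunit genes 0 had a region at an end or in the body, against 1.57% of all coding genes at an end and 3.66% in the body. Of 14 cohesin and loader genes, ESCO1, a cohesin acetyltransferase, had one at an end, with folds of 2.34 in replicate 1 and 3.23 in replicate 2. Regions lay in the bodies of 4 of the 14, with 2 in ESCO1 and 1 each in HDAC8, a deacetylase that acts on cohesin, and the core subunit genes SMC3 and STAG2. The NIPBL gene, part of this list, was not among them. Of 22 genes of cortical neuron migration 0 had a region at an end; DISC1 held 23 in its body and DAB1, a Reelin signalling adaptor, held 9. DISC1 and DAB1 lie in the chromosome 1 blocks from 223 to 246 Mb and from 54 to 72 Mb. Of 20 synaptic genes 0 had a region. Beside a background of 1.57%, counts of 0 or 1 at ends in lists this short do not set a list apart. In the body the shares were 28.6% of the cohesin list and 9.09% of the migration list, against 3.66%. Of these lists, 3 of the 14 and 4 of the 22 genes lie in dense bins. Of the 18 Integrator genes 1 lies in a dense bin, and of the 20 synaptic genes 0. Over all coding genes, 15.3% had a region at an end in dense bins, against 0.0887% elsewhere.

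PCDH9 differed from the rest of its list. Among 10 non-clustered delta protocadherins, PCDH9 alone had regions, 22 of them in its body. PCDH9 lies in the chromosome 13 block from 62 to 95 Mb, where regions covered 41.2% of the bases. Of the 10 genes, 2 lie in dense bins, and the part of location and gene length in this difference was not tested. Its 3′ end lay in the 166-kb region above, and the regions chr13:67217125-67230359 and chr13:67230545-67325238 lay at its start, with folds of 5.04 and 4.92 in replicate 1 and 4.31 and 5.65 in replicate 2. Among 6 SLITRK genes, which encode synaptic adhesion proteins, SLITRK6 had a region at its 3′ end, with folds of 2.81 in replicate 1 and 2.29 in replicate 2, and SLITRK1 had 1 in its body.

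Other gene groups had few regions at their ends, where the share of all coding genes was 1.57%. At ends, 0 of 28 immediate early genes, 0 of 20 cholesterol synthesis genes, 0 of 27 DNA replication genes, 0 of 22 heat shock and chaperone genes and 0 of 16 epithelial genes repressed by ZEB1 had a region. In the immediate early, chaperone and epithelial lists, regions lay in the bodies of ATF3 (3), CCT3 (1) and PATJ (20). Of 18 p53 targets SESN2 had one, at its 3′ end with folds of 3.40 in replicate 1 and 3.23 in replicate 2. Of 86 ribosomal protein genes RPL39 had one (1.16%), of 392 olfactory receptor genes OR13H1 had one (0.255%), and of 69 replication-dependent histone genes the neighbours H2AC25 and H2BC26 shared one (2.9%). Dense bins hold 5 of the olfactory receptor genes and 3 of the p53 targets. Reads of histone and receptor genes can come from near-identical copies, so these members are uncertain.

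Zinc finger genes stood close to the share of all coding genes, 1.57%. Of 509 genes named ZNF, 9 had a region at an end (1.77%): ZNF24, ZNF362, ZNF629, ZNF678, ZNF688, ZNF689, ZNF764, ZNF785 and ZNF786. ZNF629, ZNF688, ZNF689, ZNF764 and ZNF785 are close neighbours in the chromosome 16 block from 29 to 31 Mb. Among regions at starts of the 9, that of ZNF678 on chromosome 1 had the highest fold in replicate 1, 3.28, with 2.96 in replicate 2. ZNF609 itself, ZNF608, ZEB1, HDGF and INTS13 had 0 regions at an end or in the body; HDGF had 3 peaks of replicate 1 and 1 of replicate 2 in its body, and the other 4 genes had 0 peaks.

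Nearly all ZNF609 regions overlapped a region of another protein by 1 bp or more. The other proteins had more regions: 203599 for INTS13, 52921 for INTS11, 44211 for HDGF and 14984 for ZEB1. How often stretches of the same bins without ZNF609 meet these regions was not measured, so the shares have no background beside them. Of the 9918 regions 440 (4.44%) overlapped no reproducible region of INTS13, INTS11, HDGF or ZEB1, 803 overlapped that of 1 of them, 2200 of 2, 3196 of 3 and 3279 (33.1%) of all 4. Regions with all 4 had a median width of 1899 bp and median folds of 3.05 in replicate 1 and 3.09 in replicate 2, against 791.5 bp, 2.58 and 2.83 for regions with none. Width and number of overlaps are tied, since a wide region meets others more easily. Of regions with all 4, 7.01% lay at a start, against 0.682% of those with none.

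ZNF609 peaks of 1 list only overlapped the other proteins less often. Of replicate 1 peaks, 74.7% of the shared and 57.6% of the single ones had their summit in an INTS13 region, 84.3% and 46.3% in an INTS11 region, 37.3% and 16.2% in an HDGF region and 47.4% and 12.4% in a ZEB1 region. The summit lay in none of these regions in 8.20% of shared and 31.8% of single replicate 1 peaks, and in 8.48% of shared and 33.1% of single replicate 2 peaks. Since shared peaks also lay more often in dense bins, these differences and those of place cannot be told apart.

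Only 82 regions met no peak at all in the 8 lists of the other proteins, and 3233 (32.6%) met a peak in all 8. The 82 were narrow, with a median width of 702 bp and a widest of 1637 bp. Their median folds were 2.52 in replicate 1 and 2.83 in replicate 2, against 2.81 and 2.96 over all regions. They lay on chromosomes 13 (26), 1 (21), 18 (11) and X (10), with the rest spread over 9 others. None touched an end window of a gene, with a known strand or without: 35 lay inside genes, 20 between genes within 50 kb and 27 farther away. SLITRK1 was the nearest coding gene of 8 of them and SPRY2, an inhibitor of receptor tyrosine kinase signalling, of 6, none inside the gene; DAB1 held 2 in its body.

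The ZNF609 lists were compared with those of the other proteins by 5 measures, with 1 value per library. Chromosome 13 held 28.0% ± 8.23 of ZNF609 peaks (SD, n = 2) and 9.90% ± 6.91 of the peaks of other lists (n = 8), a difference of 18.1 percentage points (exact two-sided permutation p = 0.0444, adjusted p = 0.0741). The ZNF609 lists held 22.2% and 33.8%, and the nearest other list was ZEB1 replicate 2 with 22.4%, so the groups overlapped. At gene ends lay 4.89% ± 0.482 of ZNF609 peaks and 7.84% ± 1.10 of the others, a difference of -2.94 points (exact permutation p = 0.0222, adjusted p = 0.0741). There the groups did not overlap, with 5.23% and 4.55% in the ZNF609 lists and 5.99% to 9.50% in the others.

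Gene bodies held 57.7% ± 2.21 of ZNF609 peaks and 66.1% ± 7.13 of the others, a difference of -8.45 points (exact permutation p = 0.0444, adjusted p = 0.0741). The ZNF609 lists had 59.2% and 56.1%, against 59.3% to 77.5% in the others, next to each other but without overlap. The bins that hold as many peaks as all the rest were 2.10% ± 0.604 of bins for ZNF609 and 9.41% ± 6.07 for the others (difference -7.30 points, exact permutation p = 0.111, adjusted p = 0.139). The ZNF609 lists had 2.53% and 1.68%, and the nearest others were ZEB1 replicates 1 and 2 with 3.02% and 2.60%. Median peak widths were 519.5 ± 30.4 bp for ZNF609 and 523.2 ± 80.6 bp for the others (exact permutation p = 0.956, adjusted p = 0.956). With 2 libraries against 8 the smallest possible p is 0.0222, and none of the 5 differences passed the adjusted threshold of 0.05. The lists also differ in length, from 26409 and 46187 peaks for ZNF609 to 416964 for INTS13 replicate 1; with the 10000 peaks of highest −log10 p in every list, which sets the lengths equal, the differences were 16.2 points on chromosome 13, -5.11 at gene ends, -8.31 in gene bodies and -0.583 for the bins, and -890.8 bp in width. Each of these had an exact permutation adjusted p of 0.156.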

How the data were processed

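The deposited data were 10 peak lists, 1 per library, from ChIP-seq with 150 bp paired-end reads, per the labels' protocols; no list of pooled replicates was used. Per the submitters' processing notes, FastQC, Trimmomatic, Bowtie, Picard and MACS2 were used. No version, threshold, caller control or build is named (not given in the sources used here); GRCh38 was inferred from the contig names in the files. Each deposited peak has the authors' fold (a linear ratio of summit height to background), a −log10 p, a −log10 q, and a score equal to 10 times the −log10 q, rounded down; these values were used only within a list. The deposited names mark the lists as filtered, and what was removed is not stated. ZNF609 peaks carry running numbers in order of falling −log10 p; 422 numbers of replicate 1 and 407 of replicate 2 are missing, and the first present are 43 and 45. The minimum −log10 q was 1.01 and 1.12 in ZNF609 replicates 1 and 2. Read depth is unknown, and counting intervals are therefore left out.

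Peaks on chromosomes 1 to 22 and X were kept, and coordinates count from 1. Genes (59098, of them 19974 protein-coding) and start windows (34961, for 27195 genes, which also gave the strand) were from NCBI RefSeq for GRCh38. Gene ends were windows of 1 kb either side of an end of a protein-coding or long non-coding RNA gene. Dense bins were defined on the 2 ZNF609 lists after their peaks were seen. The members, gene lists and tests were chosen with earlier results of these data known.

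The genes named are the 20 coding genes with a summit of each list within 1 kb of the same end, ranked by the lower of the 2 percentiles of the fold; the 10 with most regions in the body; those at or nearest to the 5 widest regions; members of 16 gene lists with a region at an end; and ZNF609, ZNF608, ZEB1, HDGF and INTS13. Some genes that these rules name are not reported here. LMO7, NXF3 and PSEN2, ranked 21 to 23, the genes with the highest densities of regions, those near the highest peaks of 1 list, those with regions in the body from the gene lists and those nearest to regions without another protein were added after their values were seen. Library measures were compared by exact two-sided permutation over the 45 divisions of 10 libraries into 2 and 8, with Benjamini-Hochberg adjustment over 5 measures. Overlap counting and the permutation test were tested on simulated data. Python 3.11.15, NumPy 2.4.6, pandas 2.3.3 and SciPy 1.17.1 were used, with Matplotlib 3.10.9 for figures. Alternatives changed the overlap rule, the threshold on q, the window, the chromosomes, the bins and the libraries used.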

Additional observations from a re-analysis of the deposited data

Results flagged for a closer look

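Outside chromosomes 1 to 22 and X, the ZNF609 lists held 16 peaks in replicate 1 and 8 in replicate 2 on alternate contigs of the assembly. They enter no count of the report. There is no list of control libraries to set them against, and they are given here as signal in a part of the lists that was not analysed.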

How the results depend on the processing

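Region counts depended most on the threshold and on asking for both lists. The number of regions was 9918, against 533 with a −log10 q of 5 or more in each list, 5228 without chromosome 13, and 26409 to 46187 with 1 list alone. The median width was 1246.5 bp, against 1042 bp with summits within 500 bp, 7237 bp at the q threshold, 1095 bp without chromosome 13 and 498 to 541 bp with 1 list alone. The share of regions at gene ends was 8.69%, against 16.9% at the q threshold, 10.9% without chromosome 13, 6.29% to 7.12% with 1 list, 13.5% outside dense bins (added after seeing the data), and 6.60% and 21.5% with windows of 500 bp and 5 kb. The share in gene bodies was 53.7%, against 37.3% at the q threshold, 64.1% without chromosome 13, 56.1% to 59.2% with 1 list and 56.0% outside dense bins. Coding genes with a region at an end were 313, against 14 at the q threshold, 596 with 5-kb windows, 686 to 1398 with 1 list and 15 with regions outside dense bins (16 when the gene's own bin is used). The share of replicate 2 peaks found in replicate 1 was 45.7%, against 28.4% with summits within 500 bp, 63.6% at the q threshold and 7.13% among peaks of both lists outside dense bins (7.16% against all replicate 1 peaks), where the share of replicate 1 peaks found in replicate 2 was 2.15%, against 24.3%. The causes were not tested beyond what each setting leaves out.

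In the comparison of ZNF609 with the other lists, no setting gave an adjusted p under 0.05. The difference in median width changed sign: it was -3.75 bp with all peaks and 369.7 bp at the q threshold (exact permutation, adjusted p = 0.139), and lay between -25.2 and 17.8 bp without 1 ZNF609 replicate. With the 10000 top peaks of each list it was -890.8 bp (exact permutation adjusted p = 0.156). The other differences kept their direction, but their size moved. For the bins it was -0.583 points with the top peaks and -2.15 at the q threshold, against -7.30. For gene bodies it was -4.49 without chromosome 13 and -16.0 at the q threshold, against -8.45. For gene ends it was -5.11 with the top peaks and -5.33 at the q threshold, against -2.94, and for chromosome 13 it was 40.8 at the q threshold, against 18.1. Without 1 ZNF609 replicate the differences lay between 12.3 and 23.9 points for chromosome 13, between -10.01 and -6.89 for gene bodies, between -3.28 and -2.60 for gene ends and between -7.73 and -6.88 for the bins. Replicate numbers mark no shared culture or day in the labels. With them as a replicate block, the differences stay as they are, -2.94 points at gene ends and 18.1 on chromosome 13 each having an exact permutation adjusted p of 0.1, and -8.45 points in gene bodies one of 0.133. With whole proteins permuted the smallest p is 0.2. The unknown depth of the libraries limits what a missing peak shows.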
